A study of Mus musculus with 12 samples.

Results

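The R-spondins, their Lgr receptors and the ubiquitin ligases Znrf3 and Rnf43 were followed in liver RNA of mice that received Rspo2 through a viral vector. The set holds 7 genes, Rspo1, Rspo2, Rspo3, Lgr4, Lgr5, Znrf3 and Rnf43, taken by gene symbol from a table of 54532 genes. Every mouse carried the Apoe knockout genotype, so no group with an intact Apoe gene was compared. One group received Gfp-AAV, an adeno-associated virus that delivers green fluorescent protein and serves as the control (6 samples, numbered 1 to 6). The other received Rspo2-AAV (6 samples, numbered 1, 2, 4, 5, 6 and 7). The promoter, serotype and dose of the vectors, the time after injection, and the age of the mice were not given in the sources used here.

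R-spondins are secreted proteins that raise the sensitivity of cells to Wnt ligands. Znrf3 and Rnf43 are membrane ubiquitin ligases that remove Frizzled and Lrp receptors from the cell surface. An R-spondin binds an Lgr receptor and a ligase together, which takes the ligase away and leaves more Wnt receptors in place. Lgr5, Rnf43 and Znrf3 are themselves known target genes of Wnt/beta-catenin signalling, and the ligases thereby form a negative feedback. In the liver this signalling is strongest in hepatocytes around the central vein, Rspo3 is known from central vein endothelium and stellate cells, and Lgr4 is found in hepatocytes across the lobule.

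The values are FPKM, sequenced fragments per length of gene and size of library, with 14295644 to 22195576 reads per library recovered from them. Several libraries stood apart. Xist, which silences an X chromosome in female cells, was at most 0.0186 FPKM in 9 libraries. It reached 42.0 FPKM in control 3, and among the Rspo2-AAV samples 28.0 FPKM in number 1 and 5.57 FPKM in number 2. Of all reads, 8 genes of pancreatic acinar cells held 4.82% in Rspo2-AAV 4, 0.427% in number 5, 0.0486% in number 6 and 0.00416% in number 7. They held 0.000158% in Rspo2-AAV 1, 0.000146% in number 2 and at most 0.000126% in the controls. Rspo2-AAV 2 also had a Ctnnb1 (beta-catenin) level of 15.5 FPKM, against 33.8 to 41.1 in the other Rspo2-AAV libraries. The labels do not say whether each sample came from its own animal. The p-values therefore describe only how much these samples vary, which may be technical. As a check of the labelled tissue, the 7 hepatocyte marker genes found in the table (of 8 listed, albumin among them) summed to 23461 to 47349 FPKM in the controls and 18970 to 41028 in the Rspo2-AAV libraries.

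Because 1 family member is delivered in large excess, the separation of the related transcripts matters, and the most alike coding stretches are shown for that reason. For each pair the 60-base single-exon coding window with the fewest differences was sought. Both sequences are written 5′ to 3′ on the gene's own strand, with the bases that differ between the pair in capitals (GRCm38, GENCODE M21). The Rspo2 window (chr15:43078168-43078227, minus strand, exon 4) and the Rspo3 window (chr10:29504656-29504715, minus strand, exon 3) differ at 17 bases.
Rspo2: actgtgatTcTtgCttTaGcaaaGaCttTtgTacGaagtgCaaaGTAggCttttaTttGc
Rspo3: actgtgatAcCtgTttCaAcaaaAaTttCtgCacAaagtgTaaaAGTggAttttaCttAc
The Lgr4 window (chr2:110011823-110011882, plus strand, exon 18) and the Lgr5 window (chr10:115452470-115452529, minus strand, exon 18) differ at 16 bases.
Lgr4: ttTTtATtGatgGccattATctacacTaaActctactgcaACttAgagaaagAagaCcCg
Lgr5: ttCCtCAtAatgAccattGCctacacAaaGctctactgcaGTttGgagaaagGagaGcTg
The ligases are the most alike pair, with 11 differences between the Znrf3 window (chr11:5281727-5281786, minus strand, exon 8) and the Rnf43 window (chr11:87731545-87731604, plus strand, exon 8).
Znrf3: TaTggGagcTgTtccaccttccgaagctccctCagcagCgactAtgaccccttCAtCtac
Rnf43: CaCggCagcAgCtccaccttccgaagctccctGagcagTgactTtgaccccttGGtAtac
The longest identical run in the coding sequence was 14 bases for Rspo2 and Rspo3, 15 for Lgr4 and Lgr5 and 20 for Znrf3 and Rnf43. Rspo2 and Rspo1 differed at 18 bases in their most alike window and shared a run of at most 10. No pair shared a run of the length of the window.

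Rspo2, the delivered ligand, was found in every Rspo2-AAV library and in no control library. Rspo2 (ENSMUSG00000051920, chromosome 15, 43020794 to 43170826, minus strand) had 0 reads in each of the 6 controls. In the Rspo2-AAV libraries it was at 122 FPKM in number 1, 49.9 in number 2, 386 in number 4, 573 in number 5, 461 in number 6 and 265 in number 7. The numbers 1 and 2 were thus the lowest, and the number 2 value rested on 3917 reads. The lowest of these values was at least 1127-fold higher than the highest control floor, a level of 3 reads (0.0443 FPKM) in 1 library. Floors cover counting error only, since these are PCR reads without molecular identifiers. The table scales Rspo2 by a gene length of 5112 bases, while its coding sequence has 732. The sources used here do not give which part of the gene the vector carries, so the level of Rspo2 per length is uncertain against that of the other members.

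Among the endogenous members, 4 of the 5 that could be tested were called, Lgr5 and Rnf43 higher and Rspo3 and Lgr4 lower. A gene was called at an adjusted p under 0.05 from limma on log2(FPKM + 0.5), with Benjamini-Hochberg adjustment over all 13447 genes whose mean reached 0.5 FPKM. Over all these genes 5.2% were called, 2.55% higher and 2.65% lower, with a median log2 change of 0.00. The values of the 2 groups did not overlap for Rspo3, Lgr4 and Lgr5, against 3.24% of all tested genes, 1.62% in each direction. With TPM scaling, which sets each library to the same total, 1 member was called higher (Lgr5) and 1 lower (Rspo3). Of all 13447 tested genes, 197 were then called higher and 183 lower. Without Rspo2-AAV 4 and 5, the libraries with the most acinar reads, 0 were called higher and 2 lower (limma in each case), with 3 higher and 2 lower at an unadjusted p under 0.05. Calls over all 13447 genes there were 117 higher and 120 lower, and 2282 genes had an unadjusted p under 0.05. Numbers 1 to 3 alone (3 against 2 libraries) leave out every library with over 0.001% of acinar reads. There limma called 0 of all genes (955 at an unadjusted p under 0.05), and the log2 changes were -1.02 for Rspo3, -0.76 for Lgr4, 0.94 for Lgr5, 0.35 for Znrf3 and 1.12 for Rnf43. Within numbers 4 to 7 alone, 2 members were higher and 2 lower, against 6.34% and 6.92% of all tested genes. In the 9 libraries without Xist, 2 members were called higher and 2 lower, against 6% and 6.75% of all tested genes. That set holds the same Rspo2-AAV samples, numbers 4 to 7, so it is no separate check of them. These are also the Rspo2-AAV libraries with over 0.001% of acinar reads. The 2 other endogenous members are Znrf3, which was tested and not called, and Rspo1, which was below the expression filter.

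**Figure D1:**
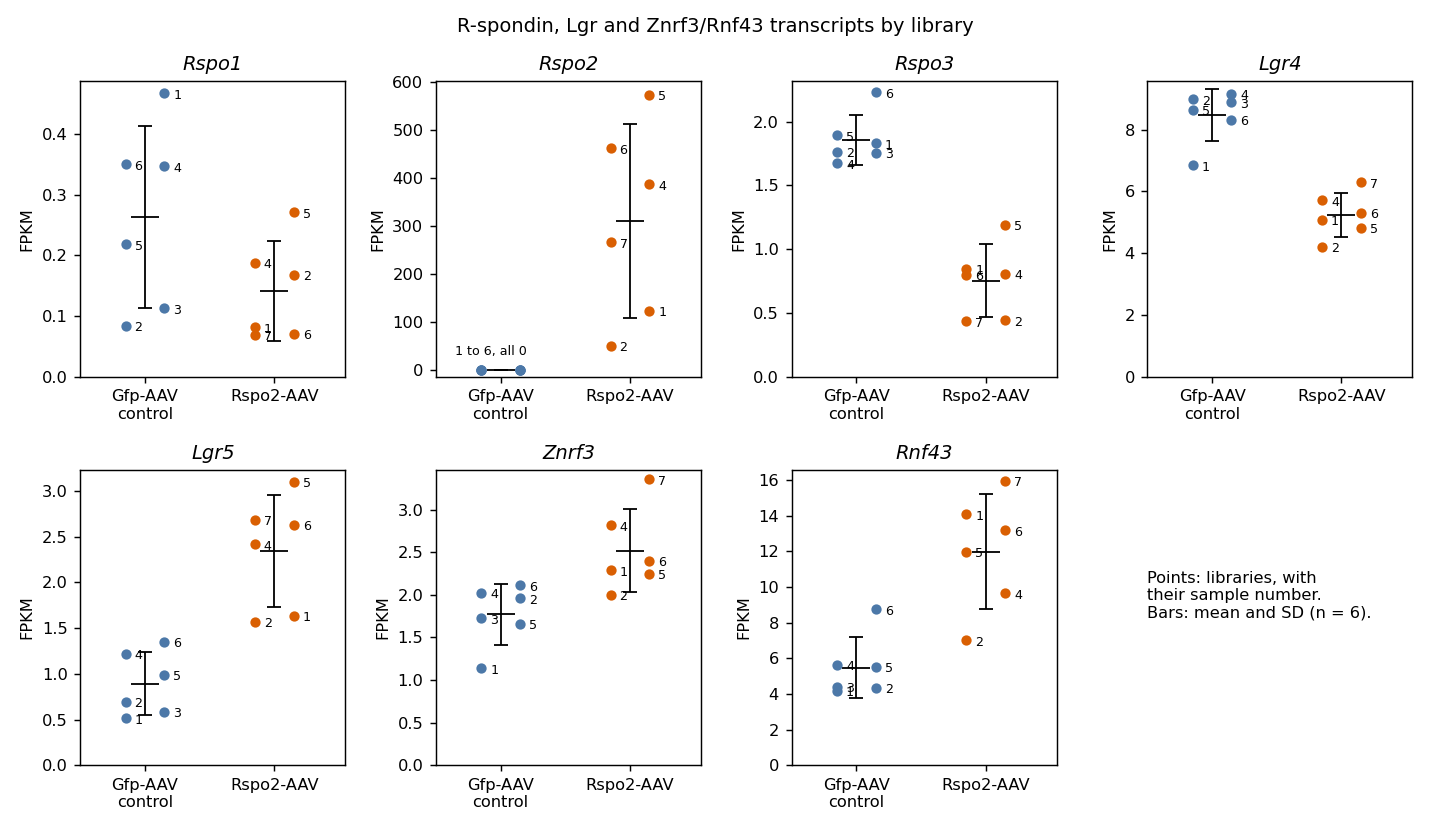
FPKM (y axes, linear, a scale for each gene) of the 7 genes in the 6 Gfp-AAV control and 6 Rspo2-AAV libraries, with points numbered by sample and bars for mean and SD. Rspo2 is at 0 in all controls, Rspo3, Lgr4 and Lgr5 separate the groups, and Rnf43, Znrf3 and Rspo1 overlap between them.

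Rspo3, the main endogenous R-spondin transcript of these livers, was lower in every Rspo2-AAV library than in every control. Rspo3 (ENSMUSG00000019880, chromosome 10, 29452416 to 29535867, minus strand) had a lowest, median and highest value of 1.67, 1.80 and 2.23 FPKM in the controls and of 0.433, 0.803 and 1.19 in the Rspo2-AAV libraries. The lowest Rspo2-AAV values were those of numbers 7 and 2, and the highest was that of number 5, which also held the most Rspo2. Means were 1.86 ± 0.196 and 0.753 ± 0.285 FPKM (SD, n = 6 per group), and the log2 change was -0.94 ± 0.15 (SE, limma adjusted p = 0.00455). The precision is limited by 75 to 132 reads in a control library and 20 to 66 in an Rspo2-AAV library. Rspo3 kept its call without any one of the 12 libraries, with log2 changes from -1.03 to -0.86.

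In bulk tissue, fewer cells of a type and less RNA per cell cannot be told apart, so Rspo3 was set beside markers of liver cell types. These were stellate cells, sinusoidal endothelium and central vein endothelium. Of 12 stellate cell markers, 0 were called higher and 6 lower, with a median log2 change of -0.79, where 2.65% of all tested genes were called lower. Their summed level was 125 to 185 FPKM in the controls and 68.9 to 116 in the Rspo2-AAV libraries, and no marker was at 0. Lrat, which stores vitamin A as retinyl ester, fell by 1.11 ± 0.23 (SE, limma adjusted p = 0.0151). Dcn, the matrix proteoglycan decorin, fell by 1.00 ± 0.15 (limma adjusted p = 0.00304). The count of lower stellate markers was 3 with TPM scaling, 3 scaled to hepatocyte markers, 3 without Rspo2-AAV 4 and 5, 10 within numbers 4 to 7 and 9 in the libraries without Xist. In the same order, 183, 137, 120, 931 and 908 of all 13447 tested genes were called lower. Of 14 sinusoidal endothelial markers, 0 were called in either direction by limma (0 higher and 2 lower at an unadjusted p under 0.05), with a median of -0.05 and sums of 84.2 to 157 FPKM in the controls and 71.5 to 141 in the Rspo2-AAV libraries. Within numbers 4 to 7, and also in the 9 libraries without Xist, 1 of them, Ehd3, was called lower. Of 5 tested markers of central vein endothelium, 0 were called by limma (1 lower at an unadjusted p under 0.05), with a median of -0.19.

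Rspo3 fell relative to the sinusoidal endothelial markers, and a change relative to the stellate markers was not found. A ratio to markers of central vein endothelium, named above as a source of Rspo3, was not computed. The log2 ratio of Rspo3 to the mean of the sinusoidal endothelial markers was -1.63 ± 0.43 in the controls and -2.46 ± 0.34 in the Rspo2-AAV libraries (SD, n = 6 per group). The groups overlapped, with a lowest control ratio of -2.24 and a highest Rspo2-AAV ratio of -2.06. The difference of -0.83 had an exact two-sided permutation p of 0.00433 (adjusted p = 0.00866 over 4 ratios) and a 95% interval of -1.32 to -0.35 from inversion of that test. Within numbers 4 to 7 this difference was -0.82 and did not pass (exact permutation, adjusted p = 0.0571). The ratio to the stellate marker mean was -1.48 ± 0.24 and -1.62 ± 0.32 (SD, n = 6 per group). Here the difference was -0.14, with an interval of -0.50 to 0.24 and an exact permutation p of 0.407 (adjusted p = 0.407). The interval leaves room for a fall of Rspo3 beyond that of the stellate markers as well as for none. The stellate difference was 0.015 within numbers 4 to 7, -0.41 within numbers 1 to 3, -0.27 without Rspo2-AAV 4 and 5, -0.25 with TPM scaling, and -0.34 and -0.01 with 0.1 and 1 added in place of 0.5. None of these passed (exact permutation, p from 0.119 to 1).

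**Figure D2:**
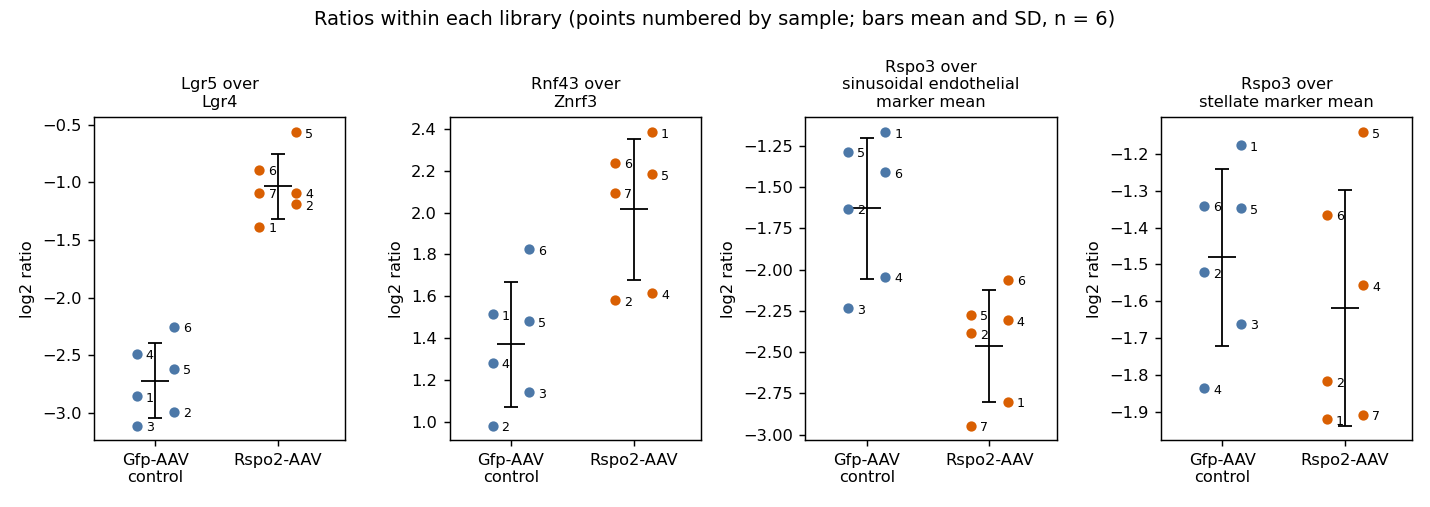
Log2 ratio, the difference of log2(FPKM + 0.5) values within a library (y axes), for 4 pairs in 6 control and 6 Rspo2-AAV libraries, with numbered points and bars for mean and SD. The Lgr5 to Lgr4 ratio separates the groups, while the Rspo3 to stellate marker ratio spans the same range in both.

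The other R-spondins were scarce. Rspo1 (ENSMUSG00000028871, chromosome 4, 124986430 to 125009099, plus strand) had 3 to 13 reads in a control library and 2 to 8 in an Rspo2-AAV library, 51 and 27 in all. Its lowest, median and highest values were 0.0843, 0.283 and 0.467 FPKM in the controls and 0.0690, 0.125 and 0.271 in the Rspo2-AAV libraries, so the groups overlapped. Without the expression filter its log2 change was -0.24 ± 0.13 (SE, limma adjusted p = 0.496), and a difference was not detectable at this depth. Rspo4 had 0 reads in all 12 libraries, where 3 reads would have been 0.0501 to 0.0954 FPKM.

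Lgr4, the receptor with the higher FPKM, was lower and Lgr5 higher in the Rspo2-AAV livers, each without overlap between the groups. Lgr4 (ENSMUSG00000050199, chromosome 2, 109917647 to 110014257, plus strand) had a lowest, median and highest value of 6.85, 8.76 and 9.15 FPKM in the controls and of 4.22, 5.19 and 6.29 in the Rspo2-AAV libraries. Control 1 lay apart as the lowest control, close to the highest Rspo2-AAV value, that of number 7. Means were 8.47 ± 0.847 and 5.24 ± 0.717 FPKM (SD, n = 6 per group), a ratio of 0.618. The log2 change was -0.65 ± 0.10 (SE, limma adjusted p = 0.00485). It was lost as a call with TPM scaling (-0.67, adjusted p = 0.0950) and with scaling to hepatocyte markers (-0.51, adjusted p = 0.0855, limma). The latter scaling moved the median of all genes from 0.00 to 0.13.

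Lgr5 (ENSMUSG00000020140, chromosome 10, 115450311 to 115587780, minus strand) marks pericentral hepatocytes in the liver. Its lowest, median and highest values were 0.514, 0.842 and 1.35 FPKM in the controls and 1.57, 2.52 and 3.10 in the Rspo2-AAV libraries. In both groups the samples numbered below 4 had less Lgr5 than those numbered 4 to 7: at most 0.695 FPKM against at least 0.989 in the controls, and at most 1.64 against at least 2.41 in the Rspo2-AAV libraries. The group means were 0.893 ± 0.347 and 2.34 ± 0.613 FPKM (SD, n = 6 per group), a ratio of 2.62, and the log2 change was 1.03 ± 0.19 (SE, limma adjusted p = 0.00864). With a term for the 2 ranges of numbers it was 0.93 (adjusted p = 0.000451), and within numbers 4 to 7 alone it was 0.93 (adjusted p = 0.00493). The vector effect differed between the 2 ranges of numbers by -0.01 ± 0.20 (SE, limma adjusted p = 0.992). Without Rspo2-AAV 4 and 5 the change was 0.92 and no longer called (limma adjusted p = 0.0603). A gene on the opposite strand within Lgr5, A930009A15Rik, was at 0.0758 FPKM in the controls and 0.289 in the Rspo2-AAV libraries. The sources used here do not give whether reads were counted by strand, so reads of these overlapping genes cannot be told apart.

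The balance of the receptors shifted toward Lgr5. Per length, Lgr5 reached 0.0660 to 0.162 of the Lgr4 level in the controls and 0.322 to 0.642 in the Rspo2-AAV libraries. The log2 ratio of Lgr5 to Lgr4 rose by 1.68, from -2.72 ± 0.32 to -1.04 ± 0.28 (SD, n = 6 per group), with an exact two-sided permutation p of 0.00216, the smallest that 6 against 6 allows (adjusted p = 0.00866 over 4 ratios), and a 95% interval of 1.30 to 2.07. Within numbers 4 to 7 the rise was 1.54 and did not pass (exact permutation, adjusted p = 0.0571). A ratio within a library does not depend on scaling between libraries except through the added 0.5. In FPKM, Lgr4 stayed above Lgr5 in all 12 libraries. That order depends on the deposited gene lengths, 10264 bases for Lgr5 and 5884 for Lgr4. Their transcripts with the longest coding sequence have 4714 and 5060 bases. In Rspo2-AAV 5, Lgr5 had 484 reads and Lgr4 had 432. Lgr6, the remaining receptor of the family, had 0 to 5 reads in a control library and 0 to 1 in an Rspo2-AAV library.

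Rnf43 was higher in the Rspo2-AAV livers, while Znrf3 did not pass the test. Rnf43 (ENSMUSG00000034177, chromosome 11, 87662722 to 87735539, plus strand) had a lowest, median and highest value of 4.18, 4.98 and 8.76 FPKM in the controls and of 7.00, 12.6 and 16.0 in the Rspo2-AAV libraries. The overlap came from control 6, the highest control, and Rspo2-AAV 2, the lowest of its group. Means were 5.48 ± 1.72 and 11.97 ± 3.22 FPKM (SD, n = 6 per group), a ratio of 2.18, and the log2 change was 1.06 ± 0.21 (SE, limma adjusted p = 0.0123). The call was lost with TPM scaling (1.10, adjusted p = 0.0696) and without Rspo2-AAV 4 and 5 (1.11, adjusted p = 0.0520, limma). Without Rspo2-AAV 2 the change was 1.19 (limma adjusted p = 0.00314). A noncoding gene on the same strand within Rnf43, 1110028F11Rik, was at 2.74 FPKM in the controls and 2.80 in the Rspo2-AAV libraries.

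Znrf3 (ENSMUSG00000041961, chromosome 11, 5276324 to 5444847, minus strand) had a lowest, median and highest value of 1.14, 1.84 and 2.11 FPKM in the controls and of 2.00, 2.35 and 3.36 in the Rspo2-AAV libraries. Only the lowest Rspo2-AAV library, number 2, fell within the control range. The log2 change was 0.41 ± 0.14 (SE), and limma gave an adjusted p of 0.102. It ranged from 0.32 to 0.53 over 25 alternative settings, with limma adjusted p from 0.0652 to 0.803.

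The ligases differed from each other in their change. The Rnf43 level was 2.22 to 4.14 times that of Znrf3 in the controls and 3.43 to 6.14 times in the Rspo2-AAV libraries, ranges that overlap. The log2 ratio rose by 0.64, from 1.37 ± 0.30 to 2.02 ± 0.34 (SD, n = 6 per group), with an exact two-sided permutation p of 0.0108 (adjusted p = 0.0144 over 4 ratios) and a 95% interval of 0.23 to 1.07. In the 9 libraries without Xist the difference was 0.61 and did not pass (exact permutation, adjusted p = 0.0529), and neither did 0.50 within numbers 4 to 7 (exact permutation p = 0.0857, adjusted p = 0.114).

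The order of the members by mean FPKM changed between the groups. In the controls it ran from Lgr4 through Rnf43, Rspo3, Znrf3 and Lgr5 to Rspo1, with Rspo2 at 0. Neighbours whose ranges overlapped there were Lgr4 and Rnf43, Rspo3 and Znrf3, and Znrf3 and Lgr5. In the Rspo2-AAV libraries the order was Rspo2, Rnf43, Lgr4, Znrf3, Lgr5, Rspo3 and Rspo1, and the one pair of neighbours with overlapping ranges was Znrf3 and Lgr5. Lgr4 exceeded Rnf43 in 5 of 6 controls, and Rnf43 exceeded Lgr4 in 6 of 6 Rspo2-AAV libraries. The FPKM ratio of Lgr4 to Rnf43 was 0.951 to 2.06 in the controls and 0.361 to 0.602 in the Rspo2-AAV libraries. An order across genes depends on the deposited gene lengths, which were 10264 bases for Lgr5, 6558 for Rnf43 and 7893 for Znrf3. Their transcripts with the longest coding sequence have 4714, 4037 and 6311 bases. For Rspo3 the lengths were nearly equal, 3090 and 3085 bases. The order by transcript length was not tested.

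Within the Rspo2-AAV group the level of Rspo2 spanned from 49.9 to 573 FPKM, and 6 relations with it were computed on the log2(FPKM + 0.5) scale. Lgr5 was the gene most closely related, with Pearson r = 0.93 (n = 6, exact permutation p = 0.0111, adjusted p = 0.0667) and Spearman rho = 0.83 (exact permutation p = 0.0583, adjusted p = 0.308). Without numbers 1 and 2, the libraries farthest from the median Rspo2 level, r was 0.52 (n = 4, exact permutation p = 0.5), so the relation rests on these 2 libraries. They are also the ones numbered below 4, which had less Lgr5 in the control group too. The same 2 are the Rspo2-AAV libraries with Xist, at 28.0 and 5.57 FPKM against at most 0.0186 in numbers 4 to 7. They also had the fewest acinar reads of the group, 0.000158% and 0.000146% against 0.00416% to 4.82% in numbers 4 to 7. The Rspo2 level, the sample numbers, Xist and the acinar reads cannot be told apart here. The value without numbers 1 and 2 is also that within numbers 4 to 7, and numbers 1 and 2 are too few for one. For Rspo3, Lgr4, Znrf3, Rnf43 and the Wnt target Axin2, r was 0.63, 0.55, 0.43, 0.51 and 0.66, and none passed (exact permutation, adjusted p from 0.358 to 0.415). These values depend on Rspo2-AAV 2: without it r turned to -0.12 for Lgr4, -0.06 for Znrf3 and -0.47 for Rnf43, and was 0.36 for Rspo3 and 0.25 for Axin2. Rspo3 was not lowest where Rspo2 was highest: number 5, with 573 FPKM of Rspo2, had the highest Rspo3 of its group.

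**Figure D3:**
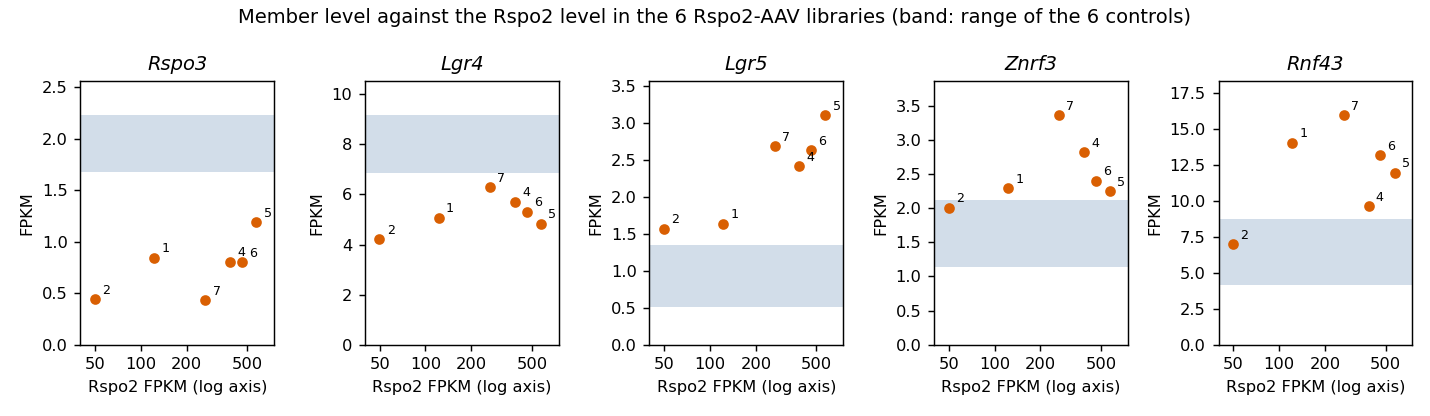
FPKM of 5 genes (y axes, linear) against the Rspo2 FPKM (x axes, logarithmic) in the 6 Rspo2-AAV libraries, numbered by sample, with a band for the range of the 6 controls. Lgr5 is lowest in numbers 1 and 2, where Rspo2 is lowest, and the other genes show no single order.

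The genes whose levels moved most like a member were sought among the 9873 protein-coding genes that averaged 1 FPKM or more, by Pearson r after subtraction of each group's mean. These values describe 12 libraries that differ in depth and sample number, and they carry no test. Lgr4 was most like Exoc6 (0.92), Dync1li1 (0.92) and the ligase Znrf3 (0.90). Znrf3 was in turn most like Exoc6 (0.93), Cox15 (0.91) and Tnrc6b (0.90). Lgr5 was most like Cdk6 (0.94), Scd1 (0.94) and Uhrf1bp1 (0.93), and Scd1 is a gene that separates the same 2 ranges of sample numbers. Rnf43 was most like Ipo5, Plxna1 and Ppp1r3e (0.90 each), and Rspo3 was most like Rbm12 (0.86), Vps37b (0.86) and Pdgfc (0.84). Over its 6 Rspo2-AAV libraries, Rspo2 was most like Dynll2, Cldn2 and Tars, with r from 0.99 to 1.00.

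The wider pathway was described from lists of genes that exclude the members. Of 92 listed genes, 51 could be tested, 8 were called higher and 1 lower, and their median log2 change was -0.01, beside 0.00 for all genes. Over all tested genes, 2.55% were called higher and 2.65% lower. The calls were concentrated among feedback and target genes, where 5 of 9 tested were higher and 0 lower, with a median of 0.92. Axin2, a feedback scaffold of the beta-catenin destruction complex, was at 1.37 to 3.77 FPKM in the controls and 5.39 to 9.42 in the Rspo2-AAV libraries, without overlap. Its log2 change was 1.41 ± 0.20 (SE, limma adjusted p = 0.00273). Sp5 and Tbx3, both transcription factors, rose by 1.51 and 1.48 on the log2 scale, Notum, a secreted enzyme that inactivates Wnt ligands, by 0.92, and Tcf7 by 0.94. Tcf7 is named because it completes the count. The count was 4 higher with TPM scaling and 4 without Rspo2-AAV 4 and 5 (limma), against 197 and 117 of all 13447 tested genes. Among 10 genes of pericentral hepatocytes, 7 were higher and 0 lower, with a median of 1.11, and the most certain were Slc1a2 (1.49 ± 0.15), Slc13a3 (1.35 ± 0.18), Glul (1.41 ± 0.21) and Gulo (1.01 ± 0.17, log2 change ± SE). Without Rspo2-AAV 4 and 5, 4 of these 10 genes were called higher, against 117 of all 13447 tested genes.

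**Figure D4:**
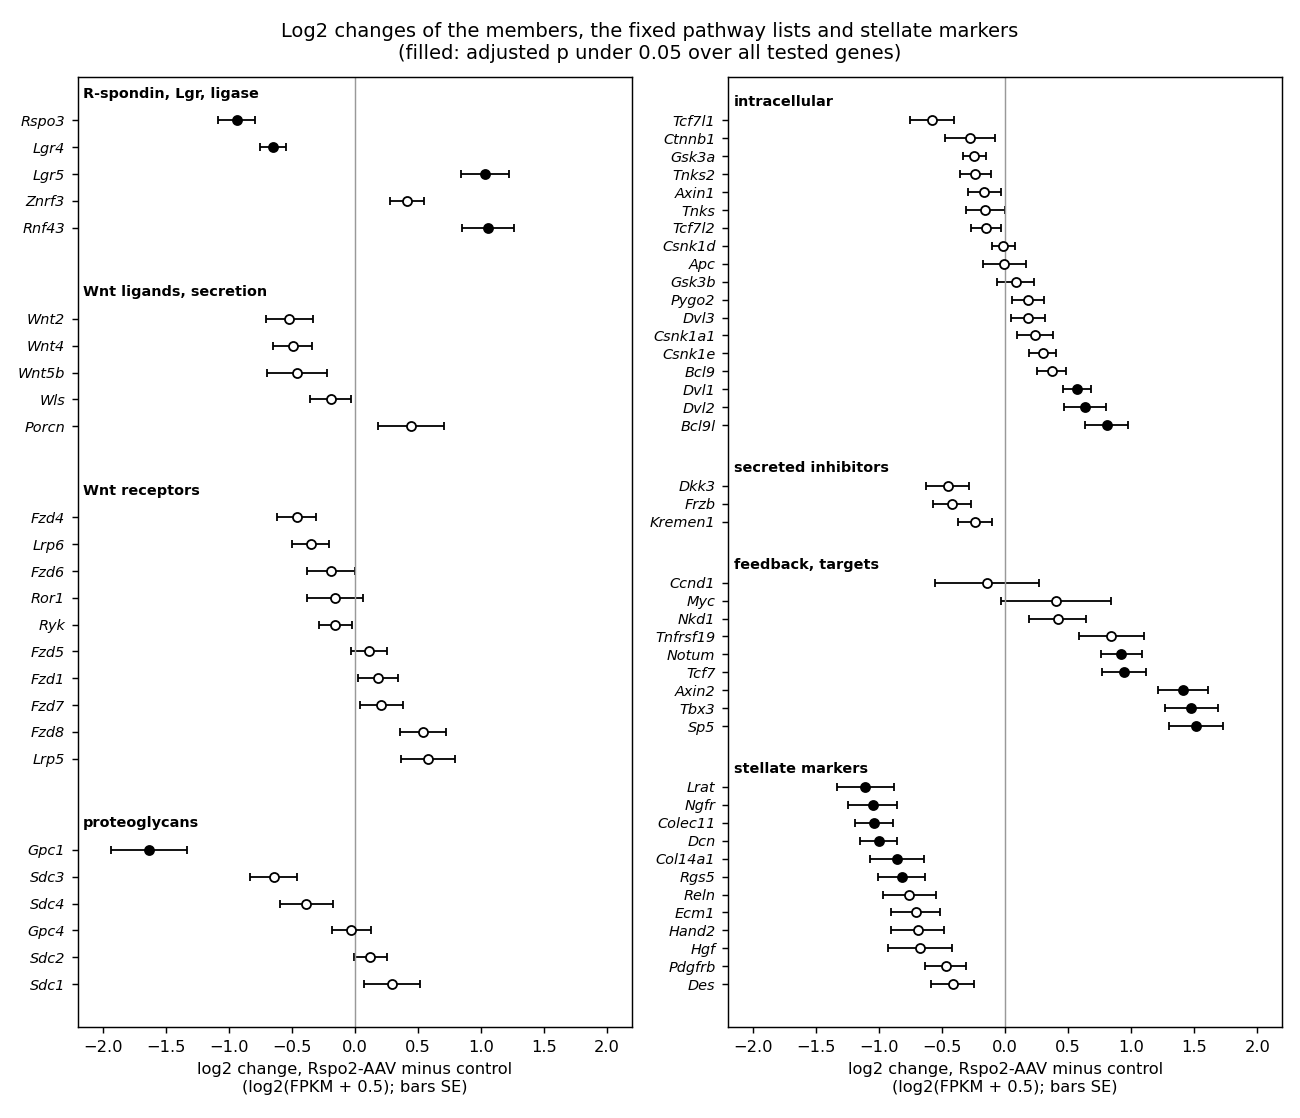
Log2 change (x axes, Rspo2-AAV minus control on log2(FPKM + 0.5), bars SE) of 5 endogenous members, the tested genes of 6 pathway lists and 12 stellate markers, filled where the limma adjusted p is under 0.05. Lgr5 and Rnf43 lie on the right, as do most feedback and target genes. Rspo3 and Lgr4 lie on the left, as do the stellate markers, the tested secreted inhibitors and Gpc1. A relation of Lgr4 to the stellate markers was not tested.

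Genes for Wnt ligands and for the Wnt receptors that the ligases remove had no calls over the 12 libraries, and a few in subsets of them. Of 5 tested genes for Wnt ligands and their secretion, 0 were called by limma (2 lower at an unadjusted p under 0.05), with a median log2 change of -0.46. Among the 9 libraries lacking Xist, Wnt4 was called lower (-0.63, limma adjusted p = 0.0351). Wnt2, from liver endothelium, was at 1.91 ± 0.612 FPKM in the controls and 1.17 ± 0.357 in the Rspo2-AAV libraries (SD, n = 6 per group; limma adjusted p = 0.125). Wnt9b, another endothelial ligand, was below the filter, at 0.548 ± 0.289 FPKM in the controls and 0.384 ± 0.210 in the Rspo2-AAV libraries (SD, n = 6 per group). Wnt5b had a log2 change of -0.46 ± 0.24 (SE, limma adjusted p = 0.284). Of 10 tested receptors and co-receptors 0 were called by limma (2 higher and 2 lower at an unadjusted p under 0.05), with a median of -0.02. The co-receptors Lrp5 and Lrp6 had log2 changes of 0.58 ± 0.22 and -0.35 ± 0.15 (SE, limma adjusted p = 0.138 and 0.189). Lrp5 was called without Rspo2-AAV 2 (0.74, adjusted p = 0.0329), within numbers 4 to 7 (0.81, adjusted p = 0.00460) and among the 9 that lack Xist (0.96, adjusted p = 0.00224), and Lrp6 without control 1 (-0.46, adjusted p = 0.0408, limma). Fzd8 was called with hepatocyte scaling (0.68, limma adjusted p = 0.0412). The receptor Ryk had a log2 change of -0.15 ± 0.13 (limma adjusted p = 0.535).

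Heparan sulfate proteoglycans, which can also bind R-spondins, had 1 call among 6 tested genes. Gpc1 (glypican 1) was at 4.65 ± 1.89 FPKM in the controls and 1.07 ± 0.428 in the Rspo2-AAV libraries (SD, n = 6 per group), with -1.63 as its log2 change (limma adjusted p = 0.00887). In the 9 libraries without Xist, Sdc1 was also called higher and Sdc3 lower (0.64 and -0.59, limma adjusted p = 0.0457 and 0.0409). Among 18 tested intracellular components 3 were higher and 0 lower, with a median of 0.04, and 1 was higher with TPM scaling or without Rspo2-AAV 4 and 5. Of all 13447 tested genes, 197 and 117 were called higher in those 2 settings, and 2.55% over the 12 libraries. Dvl1, a Dishevelled protein that carries the signal from Frizzled, rose by 0.57 ± 0.11, and Bcl9l, a beta-catenin coactivator, by 0.81 ± 0.17 (SE, limma adjusted p = 0.00971 and 0.0170). The call of Bcl9l was lost with TPM scaling and without Rspo2-AAV 4 and 5 (limma adjusted p = 0.0859 and 0.0962). Dvl2 rose by 0.63 ± 0.17 (limma adjusted p = 0.0476), a call that was lost in 17 of 25 alternative settings. Ctnnb1 had a log2 change of -0.28 ± 0.20 (SE, limma adjusted p = 0.461), and of -0.07 without Rspo2-AAV 2.

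Of the secreted Wnt inhibitors and the receptor for Dkk proteins, 3 could be tested and 0 were called by limma (2 lower at an unadjusted p under 0.05). Dkk3 had a log2 change of -0.46 ± 0.17 and Kremen1 of -0.24 ± 0.14 (SE, limma adjusted p = 0.137 and 0.337). Dkk4, a Wnt-induced inhibitor of Lrp co-receptors that was below the filter and was picked out after its values were seen, had 1 to 21 reads in each control (0.0416 to 0.870 FPKM) and 0 in each Rspo2-AAV library. Of 2 tested proliferation genes, 0 were called by limma (1 higher at an unadjusted p under 0.05). Pcna had a log2 change of 0.12 ± 0.11 and Mcm2 one of 0.32 ± 0.15 (SE, adjusted p = 0.597 and 0.230). Markers of other liver cells moved beside the members: 3 of 6 Kupffer cell markers (Clec4f, Vsig4 and Marco) were lower and 0 higher (median -1.06), with sums of 355 to 748 FPKM in the controls and 222 to 429 in the Rspo2-AAV libraries. The Kupffer count was 1 without Rspo2-AAV 4 and 5, 2 with TPM scaling, 4 within numbers 4 to 7 and 5 in the 9 libraries without Xist. In the same order, 120, 183, 931 and 908 of all 13447 tested genes were called lower, and 2.65% over the 12 libraries. Of 4 tested cholangiocyte markers 0 were called by limma (1 lower at an unadjusted p under 0.05, median 0.32), and of 7 hepatocyte markers 0 (2 lower at an unadjusted p under 0.05, median -0.06). Within numbers 4 to 7, Alb and Apob were called lower (-0.69 and -0.54, limma adjusted p = 0.0475 and 0.00840). Limma-voom on the recovered reads gave the same counts of 0 for each of these lists. The part of these cells in the levels of the members was not tested.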

How the data were processed

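Liver messenger RNA of 12 samples was sequenced, 6 per group, with groups and numbers taken from the labels. The deposited table gives FPKM per gene, 1 column per sample. The submitters' processing notes name GRCm38 (mm10), DESeq2 1.20.0, featureCounts 1.5.0-p3 and HISAT2 2.0.5, with no role or order. Reads were recovered with the deposited gene lengths: FPKM times length, divided by the step of the library, came out whole within 0.01 reads for 100.0% of values.

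The members and gene lists were chosen with earlier results of these data known. Genes were tested with limma 3.58.1 in R 4.3.3 (lmFit, eBayes with trend) on log2(FPKM + 0.5), for genes whose mean reached 0.5 FPKM. The Benjamini-Hochberg adjustment ran over all tested genes, with calls at an adjusted p under 0.05. Such log2 changes understate those of low genes. Ratios and relations used exact two-sided permutation tests over all splits or pairings, with ranks from scipy 1.17.1. The limma test was checked on simulated data. Named genes were the members, Rspo4, Lgr6, Axin2, Ctnnb1, Lrp5, Lrp6, Wnt2 and Wnt9b, up to 4 called genes per list by smallest p or else the 2 with the highest mean, and the 3 genes most like each member. Other named genes are said to be so where they appear, and the stellate examples were picked after their values were seen.

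Alternatives were pseudocounts of 0.1 and 1, no filter and a filter at 1 FPKM, TPM and hepatocyte marker scaling, limma-voom on recovered reads, a replicate block, a term for the sample numbers, sample subsets and each library left out. All 7 members were found in GENCODE M21 with identical coordinates, and sequences come from that genome and annotation. Protein sequences were not used here.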

Additional observations from a re-analysis of the deposited data

Results flagged for a closer look

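In 69 groups of 6 libraries that were checked for a single value far from the others, 4 had one, and chance flags about 1 in 20 such groups. Control 1 was low in Lgr4, at 6.85 FPKM against 8.32 to 9.15 in the other controls, and without it the log2 change of Lgr4 was -0.70 (limma adjusted p = 0.00418). Control 6 was high in Rnf43, at 8.76 FPKM against 4.18 to 5.64, and without it the log2 change of Rnf43 was 1.19 (limma adjusted p = 0.00897). Rspo2-AAV 2 was low in Ctnnb1, at 15.5 FPKM against 33.8 to 41.1. The same library was low in Slc13a3, a pericentral carrier gene, at 12.9 FPKM, and without it the log2 change of Slc13a3 was 1.49 (limma adjusted p = 0.000142).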

How the results depend on the processing

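No call of Rspo3, Lgr4, Lgr5, Znrf3 or Rnf43 changed when any 1 of the 12 libraries was left out, and no log2 change of these genes turned sign in 25 alternatives. Within numbers 1 to 3 (3 against 2 libraries), limma called 0 genes (955 at an unadjusted p under 0.05), and the changes were -1.02 for Rspo3, -0.76 for Lgr4, 0.94 for Lgr5 and 1.12 for Rnf43. There the ratio differences were 1.70 for Lgr5 to Lgr4, 0.77 for Rnf43 to Znrf3 and -0.92 for Rspo3 to sinusoidal endothelial markers, with Rspo2 at 7.30. The exact permutation p was 0.2 for Rspo3 to these markers and 0.1, the smallest possible, for the others. Ryk turned to 0.12. TPM scaling gave -0.67 for Lgr4 and 1.10 for Rnf43, hepatocyte scaling -0.51 for Lgr4. Without Rspo2-AAV 4 and 5, Lgr5 was at 0.92 and Rnf43 at 1.11. The cause of these losses was not tested. Within numbers 4 to 7 the ratio differences were 1.54, 0.50 and -0.82 (exact permutation p = 0.0286, 0.0857 and 0.0286, the smallest possible being 0.0286). Adjusted over the 4 ratios, these p were 0.0571, 0.114 and 0.0571, and none passed. The difference of Rspo3 to stellate markers turned to 0.015. Without the Xist libraries Rnf43 to Znrf3 was 0.61.

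The numbers did not pair the samples: correlations of same-numbered samples' deviations ran from -0.249 to 0.156. With the replicate block, Rnf43 was at 0.92 (limma adjusted p = 0.0531), the ratio differences at 1.62, 0.58 and -0.86 and Rspo2 at 8.84 (exact sign-flip tests, smallest p 0.0625), and 145 genes were higher and 153 lower.

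Relations of Lgr4, Znrf3 and Rnf43 with the Rspo2 level turned sign without Rspo2-AAV 2, and those of Rspo3, Lgr5 and Axin2 did not. With 1 library left out, r ranged from -0.121 to 0.795 for Lgr4, -0.0602 to 0.647 for Znrf3 and -0.467 to 0.700 for Rnf43. It turned sign also without numbers 1 and 2 (4 libraries), to -0.99, -0.99 and -0.49 (exact permutation adjusted p = 0.125, 0.125 and 0.5).

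All-gene counts were 343 higher and 356 lower, 162 to 421 higher and 170 to 492 lower with 1 library left out, 195 and 216 without a filter, 197 and 183 with TPM scaling, 853 and 931 within numbers 4 to 7, 807 and 908 without the Xist libraries, and 117 and 120 without Rspo2-AAV 4 and 5. Hepatocyte scaling gave 477 higher and 137 lower. The list counts under these subsets and scalings were added after seeing the data. Read depth limits Rspo1, Rspo4 and Lgr6 most.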

Other observations

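The Wnt co-receptor Lrp5 followed the sample numbers within the Rspo2-AAV group. It was at 13.5 and 10.5 FPKM in numbers 1 and 2 and at 19.6 to 24.9 FPKM in numbers 4 to 7, against 8.50 to 16.3 FPKM in the 6 controls. Numbers 1 and 2 were also the Rspo2-AAV libraries with Xist and with the fewest acinar reads. Within that group numbers, Xist and acinar reads cannot be told apart. The vector effect was 0.74 ± 0.30 larger on the log2 scale in numbers 4 to 7 than in numbers 1 to 3 (SE), and this difference did not pass (limma adjusted p = 0.390). Within numbers 4 to 7 alone Lrp5 was higher by 0.81 (limma adjusted p = 0.00460). The same contrast of the vector effect between the ranges of numbers was 0.10 ± 0.31 for Rspo3, 0.14 ± 0.20 for Lgr4, 0.04 ± 0.26 for Znrf3 and -0.23 ± 0.37 for Rnf43 (SE, limma adjusted p from 0.841 to 0.974).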
